A study of Caenorhabditis elegans with 14 samples.

Results

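The guide strands of *C. elegans* miRNAs whose number is 1000 or higher were examined, which are miRNAs named late, after the abundant and widely conserved families had their names. They were taken from the row names of the count table, as every row marked as a guide whose name is miR- and a number of at least 1000, with any letter or arm suffix. This gave 83 of the 214 guide strands, among 371 guide and star strands in all. The other 131 guides carry lower numbers or are let-7, lin-4 and lsy-6.

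A miRNA is cut from a hairpin precursor. One arm, the guide, is kept by an Argonaute protein and pairs with target mRNAs through its seed, while the other arm, the star strand, is mostly degraded. Many miRNAs with high numbers are known only from nematodes, are expressed at low levels and have no described target. Some are mirtrons, whose hairpin is a spliced intron and is released by the spliceosome instead of the nuclear enzyme Drosha. HRPK-1 is an RNA binding protein with KH domains, related to mammalian hnRNP K.

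Small RNA was sequenced from wild type N2 animals and from *hrpk-1(zen17)* mutants, each as 3 libraries of embryos and 3 of L4 larvae (the last larval stage), and from *hrpk-1(tm5522)* mutants as 2 L4 libraries. All animals were kept at 20 °C. *zen17* is a CRISPR deletion that the study uses as its null allele, and *tm5522* deletes part of the gene and is treated there as antimorphic, that is, as interfering with normal function. The labels do not say whether replicates were separate cultures, so p-values measure the spread between these libraries, which may be technical. Library totals ran from 1919348 counts in wild type embryo replicate 3 to 19762103 at L4. The mir-35 family, an embryonic marker, took 513588 to 776305 ppm (counts per 1000000 counts of the library) in embryos and 1402 to 3857 ppm at L4, while the let-7 family and lin-4, larval markers, took 143 to 434 ppm in embryos and 90389 to 234392 ppm at L4. Wild type L4 replicate 2 held the most mir-35 family and the least let-7 family and lin-4 of the L4 libraries. Neither *hrpk-1* nor its mRNA is a row of the table, so the mutant labels were not checked on it. In whole animals, fewer cells that make a miRNA and less of it per cell cannot be told apart.

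Of the 83 guides, 45 (54.2%) had at least 10 counts in at least 2 libraries, against 115 of the 131 other guides (87.8%). Another 29 had some counts but not enough, and 9 had 0 counts in every library. Just inside the limit stood miR-4812-5p and miR-2209c-3p, the latter within 3 counts of the star strand miR-2208a-5p in every library, and just outside it miR-5552-3p, miR-2221 and miR-4926, whose second highest library held 9 counts (named for their place at the limit). Within groups, 24 of the guides were detected in wild type embryos and 33 in each of the other 4 groups, but wild type embryos include the shallowest library. The series of names differed: 11 of the 16 guides numbered 1817 to 1834 were detected, 9 of 19 numbered 2207 to 2221, 15 of 30 numbered 4806 to 4938 and 6 of 12 numbered 5545 to 5595. Of the 9 guides at 0 throughout, 7 are numbered 4806 to 4938. Where 0 counts were found, the limit that 3 counts set lay at 1.56 ppm in the shallowest library and at 0.152 ppm in the deepest, counting error only.

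The detected guides were scarce. The median over guides of each guide's median in the 14 libraries was 1.91 ppm, against 248 ppm for the detected other guides. The most abundant, miR-1829c-5p, ranked 75 among the 214 guides with a mean over the 5 group means of 90.1 ppm. It was followed by miR-4816-3p (65.6 ppm), miR-1820-5p (56.8 ppm), miR-1022-5p (55.9 ppm), miR-4813-3p (45.9 ppm), miR-1020-3p (44.9 ppm), miR-5592-3p (41.3 ppm), miR-1817-59 (39.2 ppm; the name is spelled as in the table), miR-1819-3p (34.8 ppm) and miR-1829a-5p (21.3 ppm). These levels compare counts of strands of about the same length and carry any difference in cloning efficiency.

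**Figure D1:**
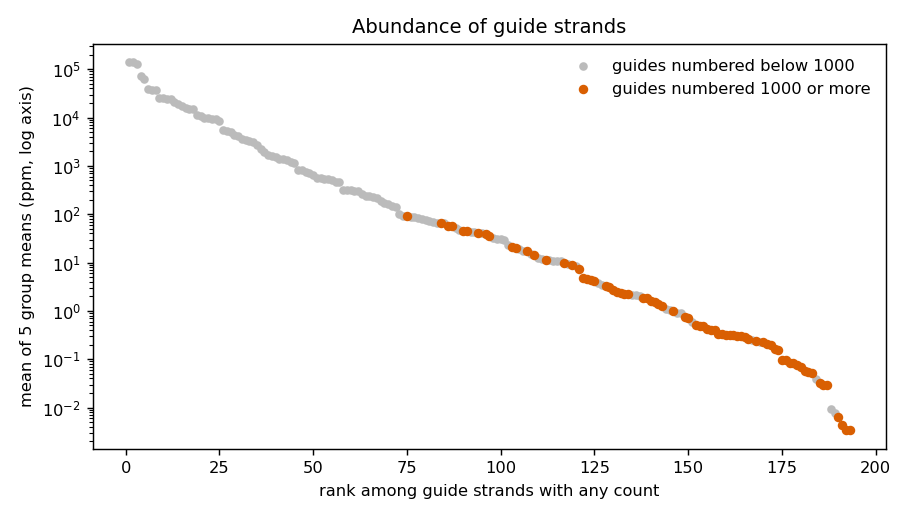
Each point is a guide strand with any count, ranked from left to right by its mean of the 5 group means, in ppm on a log axis. The guides numbered 1000 or more (orange) begin at rank 75 with miR-1829c-5p at 90.1 ppm and fill the low end, where few other guides (grey) lie.

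Summed over all 83, the guides made up 469 ± 267 ppm (SD, n = 3) of wild type embryo libraries and 756 ± 84.1 ppm (n = 3) of *hrpk-1(zen17)* embryo libraries. At L4 the sums were 497 ± 158 ppm in wild type (n = 3), 601 ± 160 ppm in *hrpk-1(zen17)* (n = 3) and 881 ± 41.0 ppm in *hrpk-1(tm5522)* (n = 2). The wild type embryo libraries held 270, 364 and 772 ppm, in the reverse order of their mir-35 family (776305, 728438 and 513588 ppm). With TMM normalization, which sets libraries by their typical strand and not by their total, the wild type embryo sum was 446 ± 37.0 CPM and that of *hrpk-1(zen17)* embryos 611 ± 119 CPM. For this reason single guides are given below as TMM-normalized CPM, set within each stage. A CPM is a count per 1000000 counts of the library size that TMM assigns.

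By name, 78 of the guides matched 1 annotated locus on WBcel235, 4 matched several and miR-1834-3p matched none. The X chromosome held 21 of them, of which 16 were detected. In all, 36 lie in an intron of a gene, on their own strand where a strand was given, 2 overlap an exon (miR-4813-3p in idhg-1, an isocitrate dehydrogenase subunit gene, and miR-2210-3p in ZK593.2) and 45 in neither or with no single locus. For miR-2214-5p, counted among the 36, no strand was given. Hairpins of 16 guides fill an intron from end to end, with 0 bases left on either side, in introns of 52 to 70 bases, which is the layout of a mirtron. Of these, 9 sit in introns of a single noncoding gene, Y59E1B.1 (X:1872466-1880038), and 6 of the 9 were detected. The others include miR-4816-3p in an intron of T09B4.2 (I:6185080-6185144) and miR-1020-3p in an intron of T16G12.1 (III:10047746-10047815). A further group of 5 guides lies on chromosome IV (IV:1021303-1027281), of which miR-2208b-3p, miR-2209a-3p and miR-2209c-3p were detected. The intron-filling, Y59E1B.1 and chromosome IV groups were set apart after their values had been seen. miR-1829c-5p lies in an intron of piki-1, a phosphoinositide kinase gene (X:15236362-15236423), miR-1829a-5p in an intron of gas-1, a subunit gene of mitochondrial complex I (X:15588311-15588370), and miR-1820-5p (IV:7767461-7767567) and miR-1819-3p (X:16207955-16208035) in no gene on their strand.

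In *hrpk-1(zen17)* embryos, 5 of the 30 guides tested rose and none fell, where 17.9% of all 201 strands tested passed the threshold (10.4% higher, 7.46% lower). The test was edgeR's quasi-likelihood test with Benjamini-Hochberg adjustment over all strands tested and a threshold of 0.05. The median log2 fold change was 0.41 for these guides and −0.08 over all strands. Among the other guides, 14 of 101 rose and 6 fell. The groups did not overlap for 7 of the 30, all higher in the mutant, against 30.3% of all strands (15.4% higher). Of the 30, 9 had an unadjusted p under 0.05, against 29.4% of all strands. With libraries scaled by total counts, the split of all calls went from 21 higher and 15 lower to 16 and 1.

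The largest change was that of miR-5592-3p. Its levels were 0.31, 0.36 and 0.35 CPM in wild type and 3.16, 6.39 and 5.92 CPM in *hrpk-1(zen17)* embryos, resting on 1 to 2 counts per wild type library and 34 to 105 per mutant library, so that it entered the test only through the mutant. The log2 fold change was 3.90 (SE 0.56, edgeR adjusted p = 0.000867). miR-5592-3p was far more abundant in every L4 library (18.5 to 127 CPM). The larval let-7 family and lin-4 stood at 143 to 380 ppm in wild type embryos and at 240 to 434 ppm in mutant embryos, with overlap. The part of larval content in the change of miR-5592-3p was not tested. Its hairpin has 2 annotated loci that overlap on opposite strands of X, so its reads cannot be assigned to either.

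The chromosome IV group showed the next change. miR-2208b-3p lay at 0.47, 0.54 and 0.35 CPM in wild type embryos and at 5.48, 6.20 and 3.75 CPM in *hrpk-1(zen17)* embryos (log2 fold change 3.46, SE 0.50, edgeR adjusted p = 0.000867). All mutant libraries were above all wild type libraries, and with 1 to 3 counts per wild type library it too entered the test only through the mutant. Its neighbour miR-2209a-3p lay at 3.46, 2.16 and 6.02 CPM in wild type and at 9.65, 10.4 and 10.1 CPM in the mutant (log2 fold change 1.49, SE 0.37, edgeR adjusted p = 0.0223), again without overlap. The star strand miR-2208b-5p was also higher in every mutant library (log2 fold change 2.15, SE 0.75) but did not pass the threshold (edgeR adjusted p = 0.0692). The other guides of this group were too low to be tested in embryos.

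The remaining calls were smaller. miR-1821 went from 12.2 to 15.1 CPM in wild type embryos to 24.8 to 33.5 CPM in the mutant (2.13-fold, edgeR adjusted p = 0.0154). miR-4814-3p went from 0.71 to 1.08 CPM to 2.69 to 3.61 CPM (3.27-fold, edgeR adjusted p = 0.0283), and with 6, 6 and 2 counts in wild type it was the third of the 5 to enter the test only through the mutant. Both held in all 3 mutant libraries. miR-2208b-3p and miR-5592-3p passed the threshold in all 12 alternative fits that tested them, but miR-1821, miR-2209a-3p and miR-4814-3p did not. Leaving out wild type embryo replicate 1 or replicate 2 removed all 3 of these calls and left 2, while leaving out *zen17* embryo replicate 1 or 3, or scaling by total counts, left 3. Calls over all strands fell in these fits too, from 36 to between 17 and 21.

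miR-1820-5p illustrates the spread among mutant embryos. It was at 16.3, 16.2 and 41.8 CPM in wild type and at 182, 24.1 and 69.3 CPM in *hrpk-1(zen17)* embryos. The groups overlapped, and the log2 fold change of 1.97 (SE 0.65) did not pass (edgeR adjusted p = 0.0576). miR-1022-5p was also variable, at 88.8, 42.9 and 109 CPM in the mutant against 41.5 to 55.6 CPM in wild type (log2 fold change 0.82, SE 0.34, edgeR adjusted p = 0.122).

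**Figure D2:**
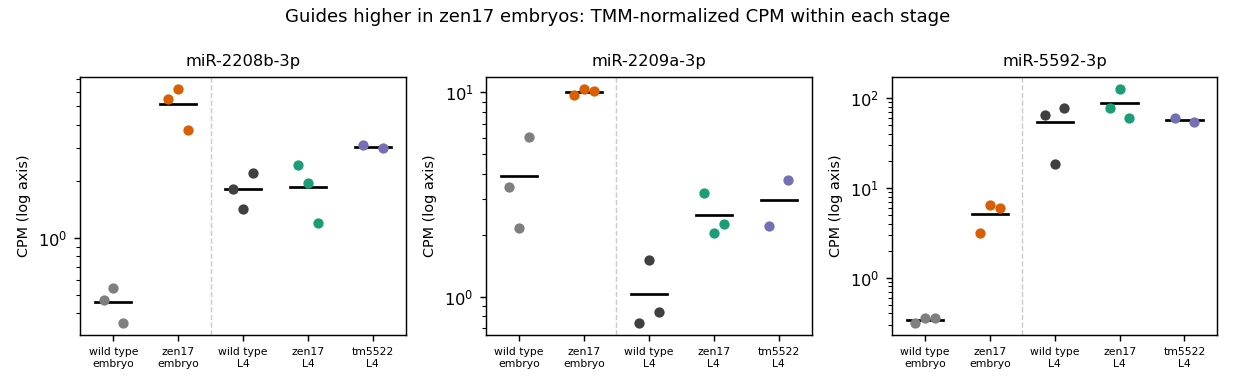
Points are libraries and lines are group means, in TMM-normalized CPM set within each stage, on log axes that differ between panels; the dashed line parts embryos from L4. For miR-2208b-3p, miR-2209a-3p and miR-5592-3p all 3 mutant embryo libraries lie above all 3 wild type embryo libraries, and only miR-5592-3p is higher at L4 than in mutant embryos.

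At L4, none of the 33 guides tested in *hrpk-1(zen17)* passed the threshold in edgeR, as for all 228 strands (0.0%). Of the 33, 9 had an unadjusted p under 0.05, where 14.5% of all strands did. DESeq2 called 3 guides (miR-1820-5p, miR-1819-3p and miR-1829c-5p, all higher), and 9 of all 228 strands (4 higher, 5 lower). The groups did not overlap for 10 guides, 9 of them higher in the mutant, against 25.0% of all strands (17.5% higher). miR-1829c-5p was at 81.3, 51.3 and 65.7 CPM in wild type and at 131, 130 and 123 CPM in the mutant (log2 fold change 0.93, SE 0.26, edgeR adjusted p = 0.177). miR-1819-3p was at 25.3, 27.1 and 27.6 CPM in wild type and at 58.4, 45.6 and 48.4 CPM in the mutant (log2 fold change 0.90, SE 0.23, edgeR adjusted p = 0.177). miR-1820-5p was at 15.3, 10.2 and 16.7 CPM in wild type and at 29.7, 42.7 and 24.2 CPM in the mutant (log2 fold change 1.19, SE 0.31, edgeR adjusted p = 0.177). For all 3 the mutant libraries lay above the wild type libraries. Without wild type L4 replicate 2, edgeR called 3 guides (miR-1819-3p and miR-2209a-3p higher, miR-4936 lower), and 13 strands in all, 3 of them higher. miR-4936 is named because in this comparison it was called only then.

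The change of the mutant was set against its change in embryos in a fit with an interaction term. Of 39 guides tested, 2 differed between the stages, where 4.8% of 250 strands did (4.0% with a more negative change at L4). With RLE size factors the split of all calls went from 2 positive and 10 negative differences to 3 and 8. miR-2208b-3p rose in embryos but was at 1.83, 1.42 and 2.22 CPM in wild type L4 and at 2.43, 1.95 and 1.20 CPM in mutant L4, so the groups overlapped there. The difference between the stages was −3.64 on the log2 scale (SE 0.68, edgeR adjusted p = 0.00261) and passed in all 18 alternative fits that tested it. For miR-5592-3p, at 64.9, 18.5 and 77.7 CPM in wild type L4 and at 78.1, 127 and 60.6 CPM in mutant L4, the difference was −3.37 (SE 0.86, edgeR adjusted p = 0.0312). It passed in 11 of 19 alternative fits, with adjusted p-values up to 0.128.

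Against wild type L4, 7 of the 37 guides tested rose and 1 fell in *hrpk-1(tm5522)*, where 22.4% of 232 strands passed (10.3% higher, 12.1% lower). The median log2 fold change of these guides was 0.40, against −0.09 over all strands. Without the count filter, over 70 guides and 323 strands, the medians were −0.27 and −0.30. Of the other guides, 13 of 110 rose and 19 fell. The let-7 family and lin-4 stood at 206181 and 234392 ppm in the *hrpk-1(tm5522)* libraries, above all wild type L4 (90389 to 157158 ppm) and *hrpk-1(zen17)* L4 libraries (158896 to 192275 ppm), and the part of this larval marker shift in the changes below was not tested. The groups did not overlap for 23 of the 37, 19 of them higher in the mutant, against 61.2% of all strands (31.5% higher).

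miR-1820-5p changed most among the guides that rose, to 111 and 109 CPM from 15.3, 10.2 and 16.7 CPM in wild type. The log2 fold change was 2.91 (SE 0.27, edgeR adjusted p = 0.00504). Its star strand did not follow. With a log2 fold change of 0.03 (SE 0.31), miR-1820-3p was not called (edgeR adjusted p = 0.95), and the guide made up 83.5% of guide and star counts in wild type L4 (80.1 to 85.4% over libraries). In *hrpk-1(zen17)* the share was 94.4% (92.2 to 96.3%), and in *hrpk-1(tm5522)* it was 97.4%. These shares were not tested.

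miR-1819-3p was at 76.2 and 64.6 CPM in *hrpk-1(tm5522)* (2.52-fold over wild type, edgeR adjusted p = 0.0152), and its neighbour on the X chromosome, miR-2212-5p, rose 3.02-fold at low counts (edgeR adjusted p = 0.0431; named for its place beside miR-1819-3p). miR-1829c-5p was at 143 and 140 CPM (2.05-fold, edgeR adjusted p = 0.0435). miR-1829a-5p was at 30.5 and 35.4 CPM against 15.3, 8.59 and 17.2 CPM in wild type (2.33-fold, edgeR adjusted p = 0.042). miR-2210-3p was at 6.03 and 4.60 CPM against 1.89, 0.96 and 1.61 CPM (3.43-fold, edgeR adjusted p = 0.0298), and miR-4814-3p at 3.99 and 3.50 CPM against 0.78 to 1.72 CPM (2.84-fold, edgeR adjusted p = 0.0485). All of them were higher in both mutant libraries than in all 3 wild type libraries. The fall was that of miR-5549-3p, with 0 and 1 counts in the mutant and 13, 8 and 17 in wild type (edgeR adjusted p = 0.0479; named as the only fall), so that it entered the test only through wild type.

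These calls depend on few libraries, as do those of all strands. Without *tm5522* replicate 1 or without replicate 2 no guide and no other strand passed, the lone library then being taken to vary like the wild type group, and the adjusted p of miR-1820-5p was at most 0.0948. Without wild type L4 replicate 1 there were 2 calls (25 of 225 strands in all), and 1 without replicate 3 (21 of 228). With libraries scaled by total counts 7 guides were called, 5 higher and 2 lower, of which 3 were among the 8 (miR-1820-5p, miR-2210-3p and miR-5549-3p), while 50 of all 232 strands passed. Without wild type L4 replicate 2 there were 19, 15 higher and 4 lower, among them all 8, but calls over all strands also went from 52 of 232 to 110 of 227 (53 higher, 57 lower). With that library left out miR-4816-3p, miR-1817-59, miR-1830-5p and miR-5551-5p were also higher. miR-4936, miR-1822-3p and miR-1829b-5p, named as falls of that fit, were lower (log2 fold change −2.57, −1.54 and −1.22, edgeR adjusted p of at most 0.0254). miR-4936 and miR-1822-3p were called lower in DESeq2 too (adjusted p = 0.011 and 0.0178). The same held in edgeR's fit over all 14 libraries (adjusted p = 0.00994 and 0.0157).

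**Figure D3:**
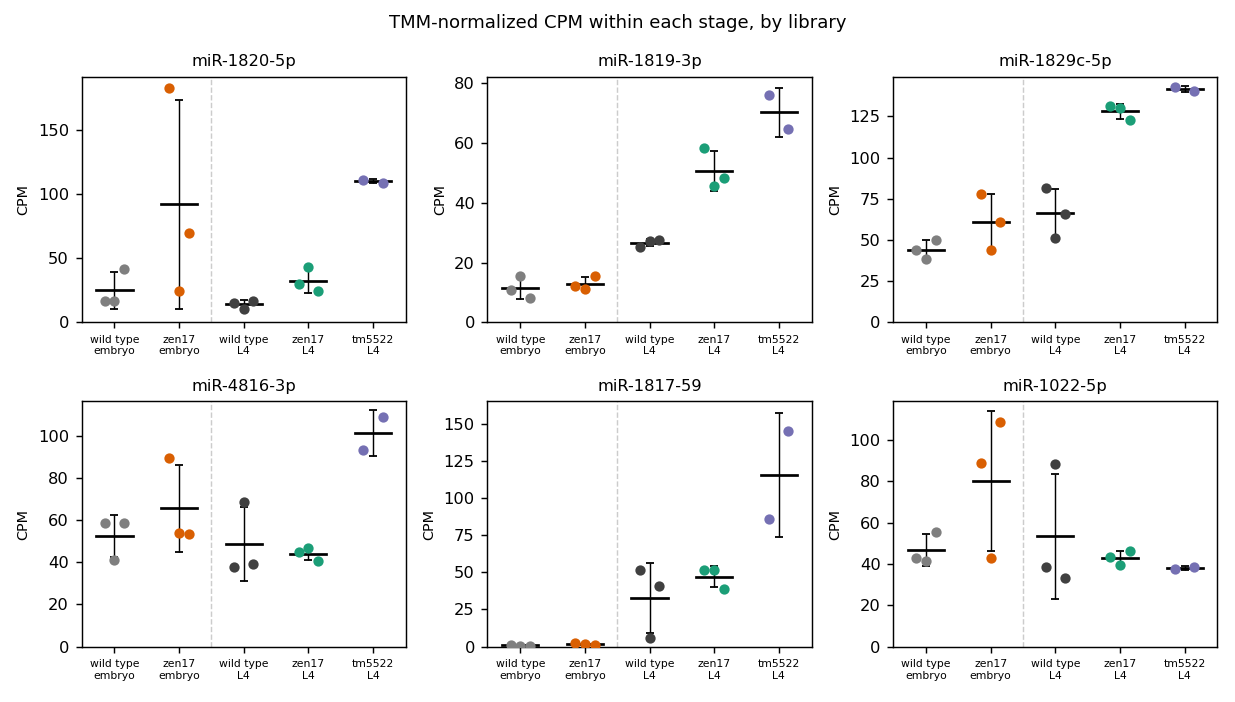
Points are libraries, thick lines group means and bars 1 SD (n = 3, or 2 for *tm5522*), in TMM-normalized CPM set within each stage, on linear axes from 0. At L4, miR-1820-5p (109 to 111 CPM), miR-1819-3p and miR-1829c-5p of the *tm5522* libraries lie above all wild type libraries, while miR-1022-5p does not, and wild type L4 replicate 2 is far from its group in miR-1817-59 (6.11 CPM) and miR-1022-5p (88.1 CPM).

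Between the alleles at L4, 10 of 37 guides were higher in *hrpk-1(tm5522)* and 2 were higher in *hrpk-1(zen17)*, where 38.4% of 229 strands passed (17.9% and 20.5%). Of the other guides, 16 of 114 were higher and 36 lower. Of the 12 calls, 3 entered the test only through the allele where they were high (miR-4806-3p, miR-4937 and miR-5549-3p, named for this). Their folds rest on few counts in the other allele. This comparison and the one before share the *tm5522* libraries. miR-1820-5p was 3.25-fold higher (edgeR adjusted p = 0.00165) and passed in all 12 alternative fits. miR-4816-3p, from an intron-filling hairpin, was at 93.5 and 109 CPM against 44.7, 46.7 and 40.8 CPM in *hrpk-1(zen17)* (2.21-fold, edgeR adjusted p = 0.00311). miR-1817-59 was at 85.7 and 145 CPM against 51.4, 51.2 and 38.7 CPM (2.36-fold, edgeR adjusted p = 0.00693). miR-1830-5p, from an intron of paic-1, was at 4.17 and 3.36 CPM against 0.92 to 1.10 CPM (3.48-fold, edgeR adjusted p = 0.00253), and its star strand was 3.55-fold higher. miR-1829a-5p (1.74-fold), miR-1020-3p (1.74-fold), miR-5551-5p (1.76-fold) and miR-4814-3p (2.37-fold) were higher as well. miR-1829b-5p was lower, at 0.98 and 0.73 CPM against 2.04 to 2.64 CPM (2.92-fold, edgeR adjusted p = 0.011), opposite to miR-1829a-5p. miR-1829c-5p was not called (log2 fold change 0.09, SE 0.21).

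**Figure D4:**
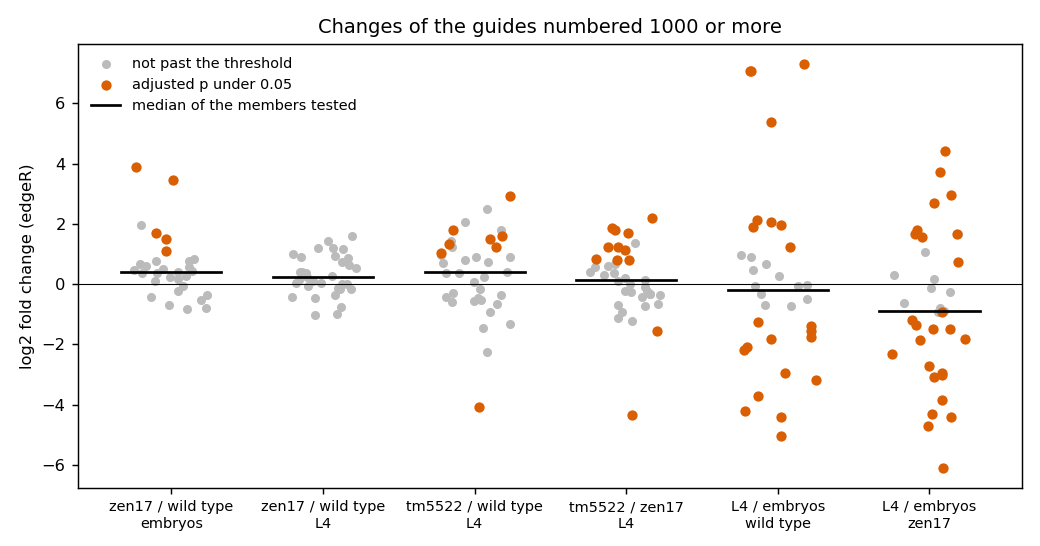
Each point is a guide numbered 1000 or more that was tested in a comparison, at its edgeR log2 fold change (first group over second); orange points have an adjusted p under 0.05 and black lines are medians of the guides tested. In *zen17* embryos all 5 calls lie above 0, in *zen17* L4 there are none, and the contrasts of L4 with embryos hold the widest spread.

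More of these guides passed the threshold between the stages than between genotypes. The fold changes between stages come from fits that scale embryos and L4 together. The CPM beside them, unless stated otherwise, were scaled apart for embryos and for L4, so their ratios only approximate these fold changes. In wild type, 9 of 34 guides were higher at L4 and 13 lower, where 72.2% of 230 strands passed (40.9% higher, 31.3% lower), and of the other guides 54 of 111 were higher and 29 lower. The median log2 fold change was −0.20 for these guides and 0.38 over all strands. In *hrpk-1(zen17)*, 9 of 36 were higher at L4 and 17 lower, where 72.7% of 238 strands passed (34.0% higher, 38.7% lower), with medians of −0.91 and −0.27. With libraries scaled by total counts, 8 guides were higher at L4 in wild type and 7 lower, and of all strands 85 and 51. Of the 22 wild type calls, 7 entered the test only through the stage where they were high, having under 10 counts in every library of the other stage, as did 3 of the 26 in *hrpk-1(zen17)*. Their folds rest on those few counts. Each stage comparison has its own libraries. Of the 18 guides called in both, 7 were higher at L4 in both and 10 lower in both. The exception was miR-2208b-3p, which was higher at L4 than in embryos in wild type (log2 fold change 1.96, SE 0.57) and lower in *hrpk-1(zen17)* (−1.84, SE 0.41). Calls shared by both comparisons were not counted over all strands, so whether the guides differ in this from other strands was not tested.

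Among the guides high at L4, miR-5592-3p had a log2 fold change of 7.30 in wild type (SE 0.71, edgeR adjusted p = 4.28e-06), resting on 2, 2 and 1 embryo counts, and of 3.71 in *hrpk-1(zen17)* (SE 0.37). miR-1817-59, with 7, 3 and 2 counts in wild type embryos, was at 0.54 to 1.10 CPM in wild type embryos and at 51.6, 6.11 and 40.6 CPM in wild type L4 (log2 fold change 5.39, SE 0.82, edgeR adjusted p = 0.000111). In *hrpk-1(zen17)* its log2 fold change was 4.42 (SE 0.36). miR-2210-3p and miR-2953-5p (the latter named for its 0 counts) had 0 counts in all wild type embryo libraries. Against the limit of 3 counts over the group, they were at least 10.2-fold and 11.2-fold higher in ppm at L4. miR-1020-3p, miR-1819-3p and miR-5551-5p were higher by 2.36-fold to 4.12-fold in wild type and were called in *hrpk-1(zen17)* too. miR-1830-5p was called in both genotypes (4.37-fold in wild type), but entered both tests only through L4. Its embryo counts were 4, 3 and 0 in wild type and 4, 0 and 0 in *hrpk-1(zen17)*. The wild type call of miR-1830-5p held in 2 of the 6 fits with a library left out.

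The guides of Y59E1B.1 were high in embryos. Of its 6 detected guides, 5 were lower at L4 in wild type (median log2 fold change −2.68) and all 6 in *hrpk-1(zen17)* (median −3.47). With libraries scaled within each comparison, none of the 6 overlapped between stages in either genotype, nor did 76.1% of all strands in wild type and 76.1% in *hrpk-1(zen17)*. With TMM over all 14 libraries, a scaling added after seeing the data, miR-4808-3p overlapped in wild type (3.96 to 4.74 CPM in embryos, 2.92 to 4.41 CPM at L4) and the other 5 did not. miR-4923b fell from 6.29, 11.5 and 6.38 CPM in wild type embryos to 0.17, 0.28 and 0.23 CPM at L4 (3, 6 and 3 counts), entering the test only through embryos (log2 fold change −5.04, SE 0.52, edgeR adjusted p = 6.22e-06). miR-4807 fell from 22.8, 29.1 and 19.8 CPM to 0.29, 2.20 and 0.61 CPM (log2 fold change −4.43, SE 0.62, edgeR adjusted p = 5.78e-05). miR-2220-3p, miR-4809-3p and miR-1018 fell by 9.02-fold, 4.56-fold and 4.22-fold, and miR-4808-3p, at 4.50 to 5.34 CPM in embryos and 2.75 to 3.86 CPM at L4, did not pass in wild type (these 4 are named as the rest of the group). Between genotypes, none was called among the 6 tested in *hrpk-1(zen17)* embryos, the 3 tested in *hrpk-1(zen17)* L4 and the 4 tested in *hrpk-1(tm5522)* L4, where 17.9%, 0.0% and 22.4% of all strands passed.

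**Figure D5:**
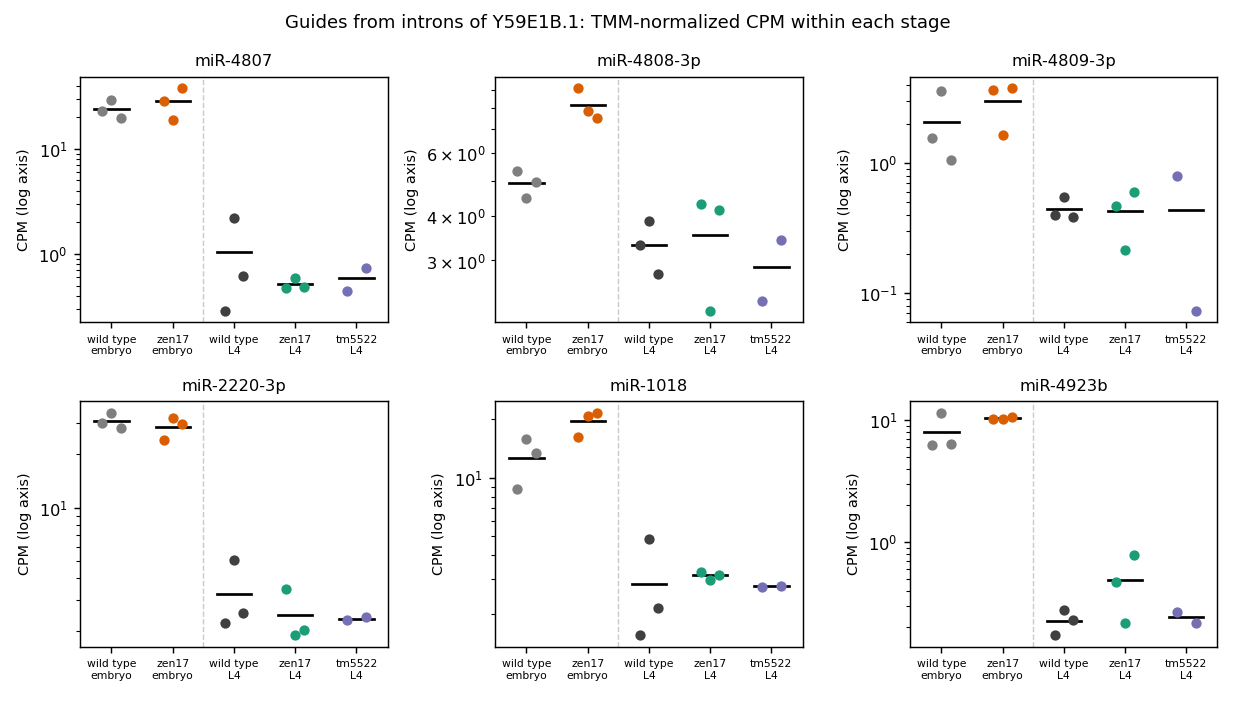
Points are libraries and lines group means for the 6 detected guides of Y59E1B.1, in TMM-normalized CPM set within each stage, on log axes that differ between panels. Embryo libraries lie above L4 libraries, from 18.7 to 37.7 CPM against 0.29 to 2.20 CPM for miR-4807, but for miR-4808-3p the separation is lost when all 14 libraries are scaled together.

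Not all intron-filling hairpins followed this order. Of the 9 detected, 6 are the Y59E1B.1 guides above, so the counts and medians given here rest mainly on that gene. Outside it, only miR-4920 was lower at L4 in wild type (log2 fold change −1.54, SE 0.37), and it is named for that reason. Over the 9 detected, 6 were lower and 1 higher at L4 in wild type (median log2 fold change −2.08), where 31.3% and 40.9% of all strands were. In *hrpk-1(zen17)* 7 were lower and 1 higher (median −2.96), against 38.7% and 34.0%. The one higher was miR-1020-3p, at 15.8 to 19.8 CPM in embryos and 44.9 to 70.9 CPM at L4 (log2 fold change 1.88, SE 0.32, edgeR adjusted p = 0.000229). miR-4816-3p was not called in wild type (log2 fold change −0.06, SE 0.33) but was lower at L4 in *hrpk-1(zen17)* (−0.91, SE 0.30, edgeR adjusted p = 0.0143). Outside introns, miR-1823 (log2 fold change −3.70, SE 0.49) and miR-4813-3p (−2.94, SE 0.36) also fell, as did miR-5546-3p (−4.20, SE 0.50) from a long intron of arx-1, an Arp2/3 complex subunit gene, all with edgeR adjusted p of at most 3.64e-05. In wild type L4 replicate 2, the L4 library with the most mir-35 family, 8 of the 13 guides that fell had their highest wild type L4 level, and 6 of the 9 that were higher at L4 had their lowest. These places were not counted over all strands, so whether the guides differ in this from other strands was not tested. Without that library, 12 guides were higher and 13 lower, and of all 237 strands 106 and 76.

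A star strand is listed for 49 of the 83 guides, and 42 pairs had at least 10 counts in a group. In 24 pairs the guide made up over 90% of the counts in every group evaluated, but in 8 it made up under 50% in every group evaluated, so the strand named guide was the scarcer one (miR-1818-5p, miR-1829a-5p, miR-1829b-5p, miR-1830-5p, miR-1834-3p, miR-2208a-3p, miR-2219-5p and miR-2953-5p, listed here for this share). For miR-1829a-5p, the best covered of them, the share was 24.0% to 32.3% over the groups, with 834 to 3159 counts of the pair. The related miR-1829c-5p made up 94.6% to 97.4% of its pair. The star strands of miR-1829b and miR-1829c differed by at most 1 count in any library, and which of these miRNAs the reads came from cannot be told, a limit on the shares of both guides. The share of miR-2208a-3p has a like limit, as its star strand lay within 3 counts of the guide miR-2209c-3p in every library.

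The pair of miR-4816 differed between groups. Its guide made up 37.9% of the pair in wild type embryos (32.6 to 42.4% over libraries) and 57.6% in *hrpk-1(zen17)* embryos (49.5 to 67.6%), without overlap. The star strand was lower in the mutant (log2 fold change −0.82, SE 0.24, edgeR adjusted p = 0.0365), while the guide was not called (0.36, SE 0.30, edgeR adjusted p = 0.427). At L4 the share was 65.8% in wild type and 61.9% in *hrpk-1(zen17)*. It was 75.3% for *hrpk-1(tm5522)*, where the libraries (74.4 and 75.9%) lay above those of the other groups (56.7 to 69.5%). The shares are given as a description, with no test.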

How the data were processed

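The authors size selected RNA on gels and prepared NEXTflex libraries for an Illumina NextSeq. The deposited values are raw read counts per guide or star strand, without normalization. The submitters' processing notes name cutadapt 1.15 and Bowtie. The miRNA annotation, the genome build and the handling of reads that fit several miRNAs are not given in the sources used here. The targeted gene is no row of the table. Totals were 1919348 to 19762103 counts a library. The 14 columns were mapped to samples by title.

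From these counts, groups were compared in edgeR 4.0.16 (R 4.3.3, quasi-likelihood test, TMM) on the libraries compared. The strands tested had at least 10 counts in as many libraries as the smaller group, and in at least 3 of the libraries for the interaction. The fits kept edgeR's default prior count. A prior count of 2 was set only for the log CPM behind the correlations between replicate numbers. Standard errors were derived from the test statistic. Non-overlap was judged on TMM-normalized CPM of the comparison. The steps were tested on simulated data. The alternative settings were total counts or RLE size factors, DESeq2 1.42.0, no filter or 50 counts, a fit over all 14 libraries, replicate number as a block and each library left out. Loci came by name from the Ensembl and RefSeq annotations of WBcel235. Figures were drawn with matplotlib 3.10.9.

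Guides named in the text are the 10 most abundant, miR-1820-5p, and per comparison up to 4 called guides in each direction with a mean of at least 20 counts. Other names, among them miR-1018, miR-2220-3p, miR-4808-3p, miR-4809-3p, miR-2212-5p, miR-2953-5p, miR-4936, miR-5549-3p and those of the guide and star pairs, were chosen after their values were seen. The list of guides, the lists compared and the tests were chosen with earlier results of these data known.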

Additional observations from a re-analysis of the deposited data

Results flagged for a closer look

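The change of *hrpk-1(zen17)* against wild type differed between L4 and embryos for miR-2208b-3p, by −3.64 on the log2 scale in edgeR's interaction test (SE 0.68, adjusted p = 0.00261). All 3 mutant embryo libraries were above all 3 wild type embryo libraries, and the L4 libraries overlapped. Over the alternative fits its adjusted p ran from 0.000931 to 0.0135.

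It differed too for miR-5592-3p, by −3.37 on the log2 scale (SE 0.86, edgeR adjusted p = 0.0312), where the wild type embryo libraries held 2, 2 and 1 counts. Over the alternative fits its adjusted p ran from 0.00214 to 0.128.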

How the results depend on the processing

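No call of a guide changed direction under any alternative, and 40 of the 75 calls passed in every fit that tested them, 35 of these between stages. Scaling by total counts moved the median log2 fold change of all strands by 0.39 in *zen17* embryos, where 16 strands were then higher and 1 lower (21 and 15 with TMM), and by 0.21 between wild type stages. The guides lay above the median of all strands by 0.48 with TMM and by 0.45 with total counts in *zen17* embryos. RLE size factors moved that median by 0.29 between *zen17* stages and by 0.22 in the interaction, where 1 guide was called in place of 2. Total counts moved the interaction median by −0.35, and the gap of the guides to all strands there went from −0.27 to −0.12.

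In *zen17* embryos, total counts gave 3 calls in place of 5, as did the minimum of 50 counts (all strands from 36 to 17 and 30). In *zen17* L4, DESeq2 gave 3 in place of 0 (all strands from 0 to 9). For *tm5522* against wild type, 8 calls became 5 with 50 counts and 15 in the fit over all 14 libraries, where all strands went from 52 calls to 50 and 81. For *tm5522* against *zen17*, 12 became 6 and 5 under the same settings (all strands from 88 to 79 and 39). The 50-count minimum tests fewer guides and gave 11 calls in place of 22 between wild type stages (all strands from 166 of 230 to 132 of 177). In the interaction it gave 1 in place of 2 (all strands from 12 of 250 to 13 of 193). In other cases the cause was not tested. With a library left out, calls ran from 2 to 7 in *zen17* embryos (17 to 43 over all strands) and from 0 to 3 in *zen17* L4 (0 to 13). Between wild type stages they ran from 19 to 25 (154 to 182) and between *zen17* stages from 27 to 31 (170 to 194). In the interaction they ran from 1 to 2 (9 to 15). For *tm5522*, with a library of the other group left out, they ran from 1 to 19 against wild type (21 to 110) and from 7 to 14 against *zen17* (60 to 111).

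Deviations from the group means correlated at −0.36 to 0.17 between libraries with the same replicate number. With 2 or 3 libraries in a group, these values cannot show whether the numbers pair libraries. With the replicate number as a block, calls numbered 5 in both *tm5522* against wild type (8 without it) and *zen17* embryos (5), 6 for *tm5522* against *zen17* (12) and 1 in the interaction (2). For *tm5522* against wild type, 2 of the 5 were among the 8, while all strands went from 52 calls to 51. All strands went from 88 calls to 53 for *tm5522* against *zen17*.

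A minimum of 50 counts in 2 libraries left 27 guides detected in place of 45. Left out in turn, libraries moved the summed abundance between 317 and 568 ppm in wild type embryos, 725 and 804 in *zen17* embryos, 434 and 585 in wild type L4, 509 and 656 in *zen17* L4, and 852 and 910 in *tm5522*. As TMM-normalized CPM it was 611 in *zen17* embryos and 933 in *tm5522*, and without miR-1829c-5p 739 ppm in *tm5522*. Depth limits the guides that have few counts: 29 were below detection with some counts.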
